A study of Rattus norvegicus with 2 samples.

Results

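Genes of the interferon response and of antigen presentation were compared between 2 pools of adrenal medulla RNA, 2RH30 and 2RS30. The members were 39 genes listed by name, and the list was drawn up with earlier results of these data known. They comprised 1 interferon-induced chemokine, the receptor genes Ifnar1 and Ifngr1, factors of the IRF and STAT families, antiviral effectors, class I and class II presentation genes, and the immunoproteasome with its PA28 activator. Every probe set that the array annotation assigns to exactly 1 of these genes was taken, which gave 55 probe sets for 38 genes, out of 20826 probe sets and 14217 genes named in the same way. RT1-A2, a class I heavy chain, could not be read alone, because the 2 probe sets that name it also name other class I genes.

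The rats were adult male Sprague-Dawley animals with implanted vascular catheters. Before the clamp, the 2RH30 rats were injected with regular human insulin at 2 IU/kg and the 2RS30 rats with saline, 2 times a day over 3 days, although the methods state that on day 3 only the morning injection was given. All rats of both groups were then fasted overnight and made hypoglycemic on day 4 by an insulin clamp, for which the labels give 40 to 50 mg/dL and the methods a target within that range, and were killed 30 min after the target was reached. The comparison thus contrasts recurrent hypoglycemia (RH) with a first hypoglycemic episode, and a response common to both groups would not show in it. The left adrenal medullae of 6 rats gave the RNA pool of each group, which was hybridized to 1 Affymetrix rat genome array. Each group being 1 array, the differences could not be set against a spread between animals, and no p-value is printed. The baseline and 60 min time points of the study were not analysed here.

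Interferons bind surface receptors (IFNAR for type I, IFNGR for interferon gamma) whose kinases activate STAT factors. STAT and IRF proteins then bind short promoter elements and induce antiviral effectors as well as the genes of antigen presentation. Class I molecules display peptides that the proteasome cuts in the cytosol, and interferon gamma exchanges catalytic subunits of the proteasome for those of the immunoproteasome. Class II molecules are made mainly by macrophages, dendritic cells and B cells, and their transcription depends on the coactivator CIITA. In the adrenal medulla, chromaffin cells lie among resident macrophages, endothelium and cells of the adjoining cortex.

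Both pools carried the transcripts that define the tissue. Of 8 probe sets of 7 chromaffin cell genes, 7 lay above the array median in both groups, among them Pnmt, the enzyme that makes epinephrine, at 11.4 in 2RS30 and 11.7 in 2RH30 on the log2 scale. All 8 probe sets of 6 genes of steroid-producing cortex cells did so, with Cyp11b1 at 10.98 and 11.46, so RNA of cortex cells was present in both pools. In such bulk RNA, fewer cells of a type and less RNA per cell cannot be told apart. The median difference, 2RH30 minus 2RS30 as everywhere below, was 0.58 over the chromaffin probe sets and 0.65 over the cortex probe sets. Both medians shrank to 0.09 and 0.07 once a trend of the difference on level was removed.

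That trend and 3 other features of the arrays bear on every value below. The median difference ran from -0.38 in the dimmest to 0.49 in the brightest of 20 level bins, so each difference is also given after a lowess curve on the mean level was subtracted, called level-adjusted. The bioB controls, bacterial transcripts added before hybridization, differed by between -3.51 and -3.03, whereas the CreX controls added at the same step differed by -0.43 and -0.58. On the 2RS30 array, 7 values were each shared by 100 or more probe sets, which took in 6.83% of all probe sets, whereas no 2RH30 value was shared by more than 25. Values under the 5th percentile of an array, 3.67 in 2RS30 and 3.16 in 2RH30, leave the size of a difference uncertain, and 4 member probe sets had such a value. The SD of the difference between probe sets of 1 gene was 0.86 at mean levels under 7 and 0.63 above, as a yardstick for a single probe set that holds no spread between animals.

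**Figure D1:**
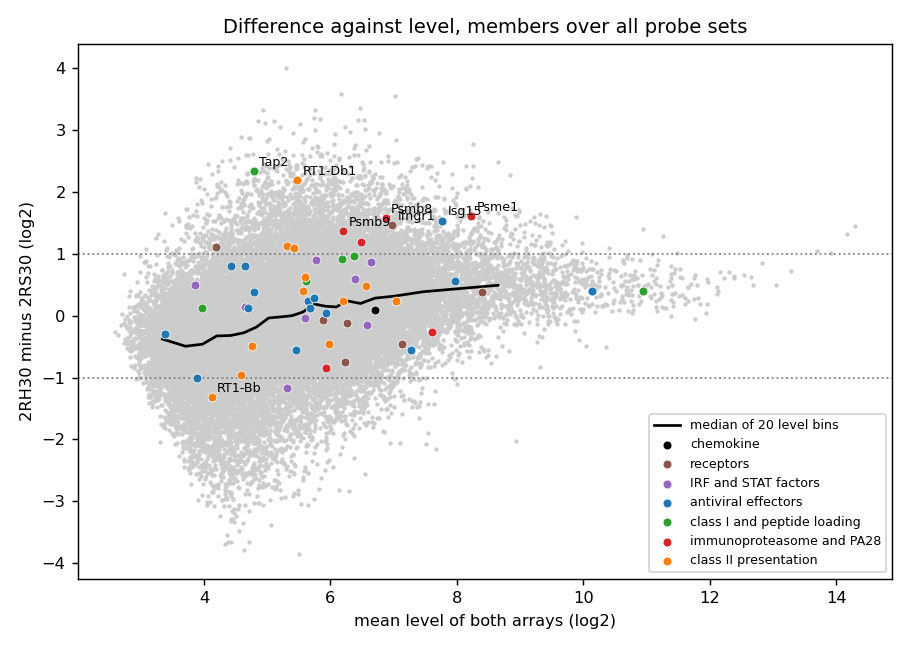
The vertical axis gives 2RH30 minus 2RS30 (log2) and the horizontal axis the mean level of the arrays (log2) for all 31042 probe sets (grey) and the 55 member probe sets (coloured by role), with the median of 20 level bins (black line). Dotted lines mark a 2-fold difference, and Tap2 at 2.33 is the highest member.

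Promoter sequences from RefSeq (assembly GRCr8) were searched for short elements known from interferon-induced and class II genes. The table holds windows from 250 bases before to 50 bases after the transcript start, for 33 of the 39 members; Isg15, Usp18, Ifit1, Ifit2, Mx2 and RT1-DMb had no entry. The core of the interferon-stimulated response element (ISRE), GAAANNGAAA on either strand, was found in 15 of 33 member windows and in 3.92% of all 33469 windows. The GAS element of STAT dimers, TTCNNNGAA, which reads the same on both strands, was found in 5 of 33 and in 8.87% of all. The Y box, CTGATTGG on either strand, was found in 7 of 33 and in 3.50% of all. A match is a run of letters and not a shown binding site.

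ISRE cores are shown for peptide loading, immunoproteasome and PA28 genes, whose measured differences were not alike, with the match in capitals. The lines give stretches upstream of the start, 5′ to 3′ along the gene, and the Tap1 match lies on the opposite strand.
Tap2 (chr20:4652313-4652352, minus strand): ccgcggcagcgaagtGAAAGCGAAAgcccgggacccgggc
Tap1 (chr20:4668640-4668679, minus strand): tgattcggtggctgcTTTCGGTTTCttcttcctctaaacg
Psme2 (chr15:33052780-33052819, minus strand): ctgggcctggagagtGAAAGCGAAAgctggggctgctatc
Psmb10 (chr19:50743341-50743380, minus strand): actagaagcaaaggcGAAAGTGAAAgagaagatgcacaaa
B2m (chr3:129549165-129549204, plus strand): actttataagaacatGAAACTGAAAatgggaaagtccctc
Tap2 and Psme2 held the same letters in the match, beginning 41 and 53 bases before the start. Psmb10 held another match 17 bases before its start, with the same letters as those of Tap2 and Psme2. The match in Psmb8 spanned the start itself.

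The antiviral effectors had ISRE cores in 6 of 8 windows, and Irf7, a factor that amplifies the type I response, had 1 as well. In Oas1a the match shown overlaps another by 4 bases, and the matches of Irf7 and Ifit3 lie on the opposite strand.
Irf7 (chr1:205800068-205800107, minus strand): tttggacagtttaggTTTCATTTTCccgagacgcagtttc
Ifit3 (chr1:241527267-241527306, plus strand): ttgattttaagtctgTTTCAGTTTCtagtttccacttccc
Oas1a (chr12:41330410-41330449, plus strand): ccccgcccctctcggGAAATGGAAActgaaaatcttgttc
None of the 6 class II windows held an ISRE core, but 4 held the Y box, shown here in capitals because the class II chains share it.
RT1-Ba (chr20:4576996-4577033, plus strand): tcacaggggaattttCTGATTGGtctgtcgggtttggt
RT1-Bb (chr20:4604160-4604197, minus strand): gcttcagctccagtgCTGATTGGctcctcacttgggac
RT1-Da (chr20:4515348-4515385, plus strand): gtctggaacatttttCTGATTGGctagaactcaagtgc
RT1-Db1 (chr20:4560223-4560260, minus strand): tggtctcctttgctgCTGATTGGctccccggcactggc

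Among the 55 member probe sets, 11 exceeded 2RS30 by 2-fold or more in 2RH30, which is 20% against 10.4% of all 31042 probe sets. A further 3 were 2-fold or more lower, which is 5.45% against 12.1% of all probe sets. The lower ones belonged to Irf9, Ifit2 and RT1-Bb, and those of Ifit2 and RT1-Bb were dim, meaning below the array median on both arrays. Level-adjusted, 12 were higher and 2 lower, against 8.99% and 10.2% of all probe sets. The median difference was 0.38 over the members and 0.02 over all probe sets, and level-adjusted 0.15 and 0.00. A total of 42 member probe sets were not dim. Some of these passed through 1 array alone, as did Tap2, RT1-Db1, RT1-DMb and 1 probe set of RT1-Ba through their high 2RH30 values, so no share is given over them. These counts describe 2 pools and were given no test.

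The higher probe sets came from 5 of the 7 roles. The immunoproteasome and PA28 supplied 4 of the 11, class II presentation 3, the receptors 2, and the antiviral effectors and peptide loading 1 each. The IRF and STAT factors, with 8 probe sets, and the chemokine Cxcl10, with 1, supplied none. Of 11 genes with several probe sets, 3 had differences of 1 sign in all of them as deposited. With dim probe sets left out, this held for 2 of 4 member genes that kept several, and for 53.6% of 2539 such genes on the whole array.

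**Figure D2:**
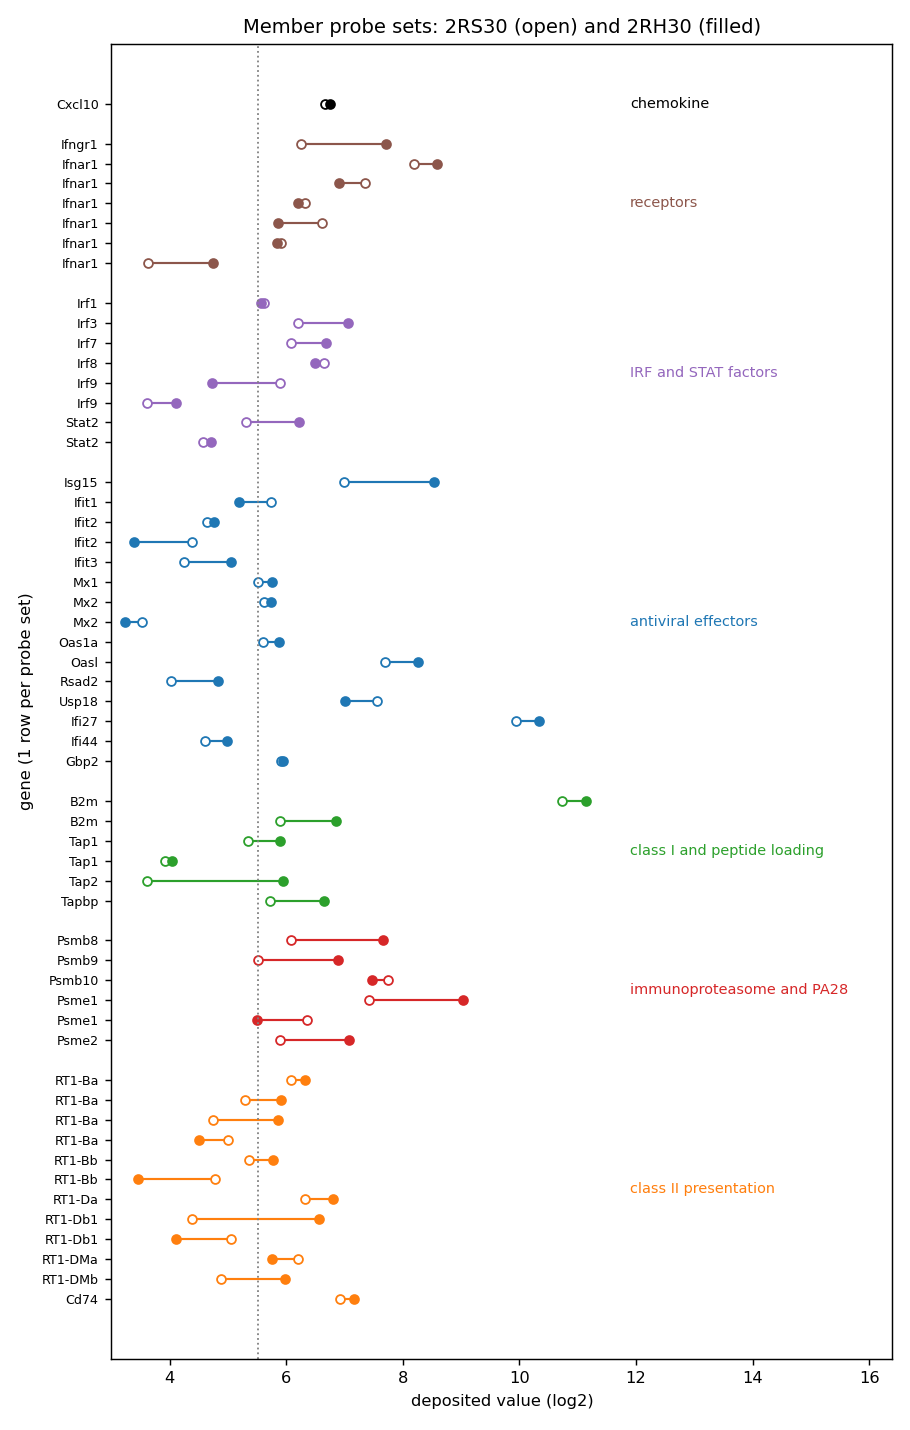
Deposited values (log2, horizontal axis) of the 55 member probe sets (vertical axis, 1 row each, labelled by gene and coloured by role) in 2RS30 (open) and 2RH30 (filled). The dotted line marks the mean of the array medians, 5.51, and the longest line is that of Tap2, from 3.62 to 5.95.

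Among ligands and receptors, 1 probe set of each receptor gene was 2-fold or more higher in 2RH30. Cxcl10, a chemokine that attracts T cells, read 6.66 in 2RS30 and 6.75 in 2RH30, giving a difference of 0.09 and a level-adjusted one of -0.19. Ifngr1, the ligand-binding chain of the interferon gamma receptor, read 6.25 in 2RS30 and 7.71 in 2RH30, giving a difference of 1.47 and a level-adjusted one of 1.15. Of the 1000 probe sets nearest to it in level, 5.1% were at least as far above 0. It has 1 probe set, so no other reading of the gene exists here. Ifngr2, the other chain of that receptor and no member, differed by 0.68 and, in a dim probe set, by 0.28 (level-adjusted 0.49 and 0.25), both under 2-fold.
Ifnar1, a chain of the type I interferon receptor, had 6 probe sets that did not go one way. The brightest read 8.20 in 2RS30 and 8.58 in 2RH30, giving a difference of 0.38 and a level-adjusted one of -0.10. Another 4 differed by between -0.75 and -0.07, and level-adjusted by between -0.95 and -0.23. The dim probe set read 3.63 in 2RS30, under the 5th percentile of that array, and 4.74 in 2RH30, which made it 1 of the 11 counted as higher. Level-adjusted, 5 of the 6 were below 0.

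No gene of the IRF and STAT factors was 2-fold or more higher in 2RH30. Irf3, a factor that acts directly after sensing of viral nucleic acid, read 6.20 in 2RS30 and 7.06 in 2RH30, giving a difference of 0.86 and a level-adjusted one of 0.60. Irf7 read 6.09 and 6.68, a difference of 0.59 (level-adjusted 0.37), and its 2RS30 value was 1 of those shared by many probe sets. Neither difference passed the SD of 0.86 between probe sets of a gene. Irf1, a target and mediator of interferon gamma, read 5.62 and 5.58, and Irf8, a factor of myeloid cells, 6.65 and 6.49. Their differences of -0.04 and -0.15 (level-adjusted -0.14 and -0.41) were small beside the same SD.
Stat2 and Irf9, factors of the type I interferon response, differed in opposite directions by their brighter probe sets. The brighter probe set of Stat2 read 5.31 in 2RS30 and 6.22 in 2RH30, giving a difference of 0.91 and a level-adjusted one of 0.77, and the dim one differed by 0.14 (level-adjusted 0.39). The brighter probe set of Irf9 read 5.90 and 4.74, a difference of -1.16 (level-adjusted -1.17), and of the probe sets nearest in level 8.2% were at least as far below 0. The dim probe set of Irf9 differed by 0.49 (level-adjusted 0.94), from a 2RS30 value under the 5th percentile, so the gene has no agreed direction.

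Among the antiviral effectors, Isg15 was the only gene 2-fold or more higher in 2RH30 as deposited. Isg15, a ubiquitin-like protein that is joined to other proteins, read 7.0 in 2RS30 and 8.53 in 2RH30. Its difference was 1.54 (level-adjusted 1.11), and 4.2% of the probe sets nearest in level were at least as far above 0. Usp18, the protease that removes Isg15 from proteins and dampens type I signalling, read 7.55 and 7.0, a difference of -0.55 (level-adjusted -0.91). Isg15 and the protease that acts on it thus lay on opposite sides of 0.
The other effectors that were not dim were all under 2-fold. Ifit1, which binds foreign RNA ends, read 5.74 and 5.18, a difference of -0.56 (level-adjusted -0.61). The GTPase Mx1 differed by 0.24 (level-adjusted 0.13), and the brighter probe set of Mx2 by 0.12 (level-adjusted 0.01). Oas1a, a synthetase that activates an RNA-cutting enzyme, differed by 0.28 (level-adjusted 0.15), and its relative Oasl by 0.57 (level-adjusted 0.11). Gbp2, a guanylate-binding GTPase, and Ifi27 differed by 0.04 and 0.40 (level-adjusted -0.13 and -0.14).
The remaining effectors were dim, as were 6 of the 15 probe sets of this role. Rsad2, known as viperin, read 4.03 in 2RS30 and 4.82 in 2RH30, giving a difference of 0.80 and a level-adjusted one of 1.13. Ifit3 read 4.25 and 5.05, a difference of 0.81 (level-adjusted 1.06), and Ifi44 differed by 0.38 (level-adjusted 0.58). Rsad2 and Ifit3 thus passed 2-fold after the level adjustment but not as deposited, and they also passed it after quantile normalization, at 1.10 and 1.08. Ifit2 was read at 0.12 and -1.01 (level-adjusted 0.35 and -0.56), and the dim probe set of Mx2 by -0.30 (level-adjusted 0.13). The median of the 15 probe sets was 0.24 as deposited and 0.13 level-adjusted, beside 0.02 and 0.00 over all probe sets.

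B2m and the peptide loading genes Tap1, Tap2 and Tapbp were all on the higher side as deposited, with 6 of 6 probe sets above 0 and a median of 0.74. No class I heavy chain is among these probe sets, and the 2 that name RT1-A2 together with other genes differed by -0.06 and -1.31 (level-adjusted -0.45 and -1.04). Level-adjusted, 5 of 6 were above 0, with a median of 0.64. Only Tap2 passed 2-fold. Tap2, which with Tap1 forms the pump that carries peptides into the ER, read 3.62 in 2RS30 and 5.95 in 2RH30, giving a difference of 2.33 and a level-adjusted one of 2.53. Of the probe sets nearest in level, 0.3% were at least as far above 0, but its 2RS30 value lies under the 5th percentile, so the size of the difference is uncertain. Its partner Tap1 read 5.34 and 5.89, a difference of 0.56 (level-adjusted 0.45), and its dim probe set differed by 0.12 (level-adjusted 0.56). Tapbp, which encodes tapasin, the protein that bridges class I molecules to the pump, read 5.72 and 6.64, a difference of 0.92 (level-adjusted 0.72). B2m, the light chain of all class I molecules, read 10.7 in 2RS30 and 11.1 in 2RH30 in its brighter probe set, a difference of 0.40 (level-adjusted -0.16). Its other probe set differed by 0.96 (level-adjusted 0.74). The brighter B2m reading lay near the trend for probe sets of its level, where 60.3% were at least as far above 0.

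The immunoproteasome and PA28 had the highest median of the 7 roles, 1.28 as deposited and 1.04 level-adjusted over 6 probe sets, none of them dim. Psmb8, a catalytic subunit, read 6.09 in 2RS30 and 7.66 in 2RH30, giving a difference of 1.57 and a level-adjusted one of 1.28. Psmb9, another catalytic subunit, read 5.51 and 6.88, a difference of 1.37 (level-adjusted 1.17). The PA28 alpha chain Psme1 read 7.42 and 9.03, a difference of 1.61 (level-adjusted 1.14). The PA28 beta chain Psme2 read 5.89 and 7.08, a difference of 1.19 (level-adjusted 0.95). These 4 were the higher ones and 0 were lower, which is 66.7% and 0% against 10.4% and 12.1% of all probe sets. Level-adjusted, Psme2 was just under 2-fold, and of the 6 probe sets 3 were higher and 1 lower. The level-adjusted shares of all probe sets were 8.99% and 10.2%. Of the probe sets nearest in level, 4.3% were at least as far above 0 as Psmb8, 5.8% as Psmb9, 2.9% as Psme1 and 9.8% as Psme2.
The remaining readings of this role went the other way. Psmb10, the third catalytic subunit of the immunoproteasome, read 7.74 and 7.48, a difference of -0.26 (level-adjusted -0.67). The other probe set of Psme1 read 6.36 and 5.51, a difference of -0.85 (level-adjusted -1.02), against 1.61 in the brighter one, and level-adjusted it was 2-fold or more lower. The mean over both probe sets of Psme1 was 0.38.
The 2RS30 value of Psmb8 was shared by 330 probe sets of that array, among them Irf7 and 1 of RT1-Ba. In 2RH30 these 330 probe sets read from 2.77 to 8.61 with a median of 6.02, and 2.12% of them were at or above the 7.66 of Psmb8. Of the 330, 8.48% were 2-fold or more higher and 15.2% lower. The part of these shared values in the difference of Psmb8 was not tested.

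Subunits of the constitutive proteasome were read beside them, since immunoproteasome subunits replace 3 of its catalytic ones. Over 18 probe sets of 14 measured genes the median was 0.40 as deposited and 0.13 level-adjusted, with 3 higher and 1 lower by 2-fold or more. That is 16.7% and 5.56%, against 10.4% and 12.1% of all probe sets. Psmb5, the constitutive counterpart of Psmb8, read 6.15 in 2RS30 and 7.38 in 2RH30, giving a difference of 1.23 and a level-adjusted one of 0.94. Its dim probe sets gave -1.34 and -0.67 (level-adjusted -0.89 and -0.43). Psmb7, the counterpart of Psmb10, read 7.60 and 8.39, a difference of 0.79 (level-adjusted 0.33). By the brighter readings, Psmb5 and Psmb8 were thus both 2-fold or more higher, while Psmb7 and Psmb10 had opposite signs. The highest members of the constitutive list were Psma5 and Psma6 of the outer rings, at 1.86 and 1.37 (level-adjusted 1.76 and 1.17), and the lowest that were not dim were the activator Psme4 and the subunit Psmb4, at -0.49 and -0.08 (level-adjusted -0.76 and -0.28). Pomp, a chaperone of proteasome assembly, read 5.64 and 7.24, a difference of 1.6 (level-adjusted 1.37).

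**Figure D3:**
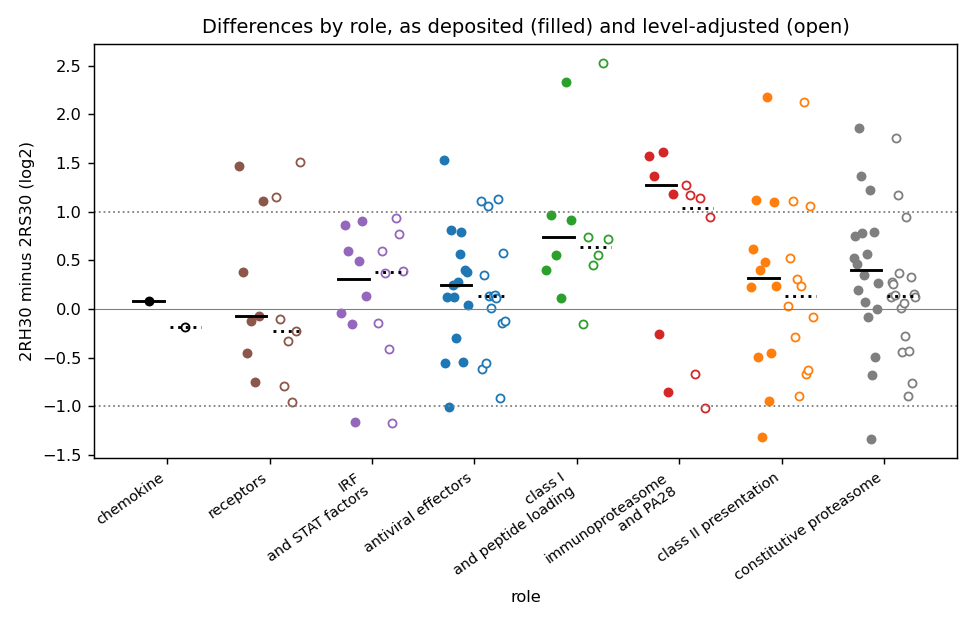
Each point is 1 probe set, with 2RH30 minus 2RS30 (log2) on the vertical axis and the member roles and the constitutive proteasome along the horizontal axis. Filled points are differences as deposited and open points level-adjusted ones. Black bars mark the medians (solid as deposited, dotted level-adjusted) and dotted grey lines a 2-fold difference. The immunoproteasome and PA28 have a median of 1.28 as deposited and the constitutive proteasome one of 0.40.

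Several members lie side by side in the genome. In the order of protein-coding genes in RefSeq (GRCr8), Tap2, Psmb8, Tap1, Psmb9, RT1-DMb and RT1-DMa follow each other without a gap in the class II region of chromosome 20. Their differences in that order were 2.33, 1.57, 0.56, 1.37, 1.10 and -0.45, and level-adjusted 2.53, 1.28, 0.45, 1.17, 1.06 and -0.62. Of these 6 neighbours, 4 were thus 2-fold or more higher in both forms, against 10.4% of all probe sets as deposited and 8.99% level-adjusted. Tap1 was above 0 and RT1-DMa below it. Other members lie side by side outside this run, among them RT1-Db1, RT1-Ba and RT1-Bb on chromosome 20. By their brightest probe sets these differed by 2.18, 0.23 and 0.40 (level-adjusted 2.12, 0.03 and 0.31), and each had another probe set below 0. On chromosome 15, Psme1, Psme2 and Irf9 lie close together with 1 other protein-coding gene between each of them. Psme1 and Psme2 were higher and the brighter reading of Irf9 lower, so position did not go with 1 direction there.

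**Figure D4:**
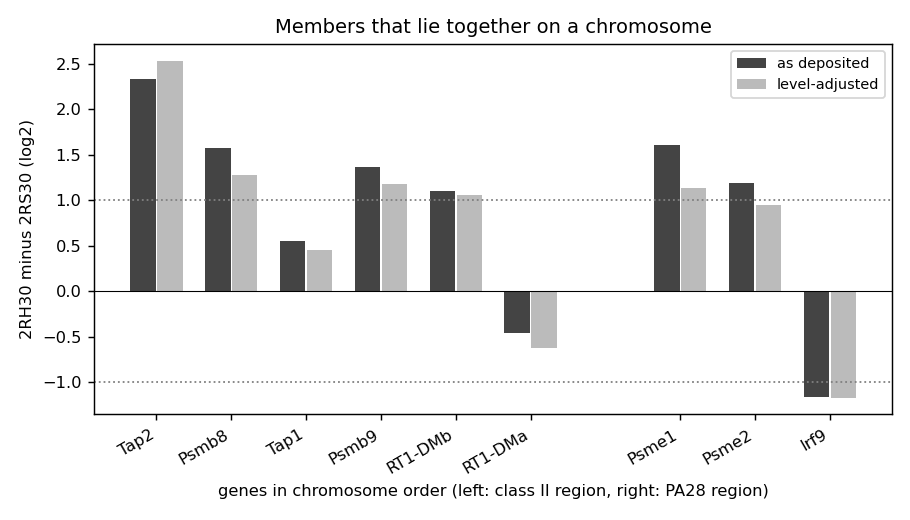
Members are set in chromosome order along the horizontal axis, each by its brightest probe set, with 2RH30 minus 2RS30 (log2) on the vertical axis, as deposited (dark) and level-adjusted (light). Dotted lines mark a 2-fold difference. The deposited differences of Tap2, Psmb8, Psmb9, RT1-DMb, Psme1 and Psme2 lie above the upper line, and Irf9 at -1.16 lies below the lower one.

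Class II presentation was divided between probe sets, even of the same gene. The 12 probe sets of 7 genes had a median of 0.32 as deposited and 0.13 level-adjusted, with 3 higher and 1 lower by 2-fold or more. That is 25% and 8.33%, against 10.4% and 12.1% of all probe sets. Cd74, the invariant chain that guards the class II groove, read 6.92 in 2RS30 and 7.15 in 2RH30, giving a difference of 0.24 and a level-adjusted one of -0.09. RT1-Da, the alpha chain of the D molecule, read 6.33 and 6.81, a difference of 0.48 (level-adjusted 0.23). Both of these readings lie within the SD between probe sets. The 2RS30 value of Cd74 was shared by 134 probe sets.
RT1-Db1, the beta chain of the same molecule, read 4.38 in 2RS30 and 6.57 in 2RH30 by its brighter probe set, which is 2.18 apart (level-adjusted 2.12), and 0.8% of the probe sets nearest in level were at least as far above 0. Its other probe set, made from the same sequence record and dim, read 5.05 and 4.10, a difference of -0.95 (level-adjusted -0.67). The brighter of these can match more than 1 transcript by the design of its probes, as its suffix states, so the gene has no agreed direction.
RT1-Ba, the alpha chain of the B molecule, had 4 probe sets with differences from -0.49 to 1.12, and level-adjusted from -0.28 to 1.11. The highest of them, from 4.75 to 5.87, is likewise of a kind that can match several transcripts, and the brightest differed by 0.23 (level-adjusted 0.03). RT1-Bb, the beta chain, had a brighter probe set that differed by 0.40 (level-adjusted 0.31) and a dim one that differed by -1.31 (level-adjusted -0.90).
The chains of the DM molecule, which loads peptides onto class II, were opposed as well. RT1-DMb read 4.88 and 5.98, a difference of 1.10 (level-adjusted 1.06), and RT1-DMa read 6.20 and 5.75, a difference of -0.45 (level-adjusted -0.62).

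Presentation genes outside the members were called about as often as the array as a whole or less. Over 32 probe sets of 18 genes for class I and class II presentation, including transcription factors, lysosomal proteases and chaperones, the median was 0.11 as deposited and -0.08 level-adjusted, with 2 higher and 4 lower by 2-fold or more, which is 6.25% and 12.5% against 10.4% and 12.1% of all probe sets. As deposited 20 of the 32 were above 0, and level-adjusted 11 were. The higher ones were Pomp and a probe set of the transcription factor Creb1, whose brightest probe set differed by 0.91 (level-adjusted 0.52). Of the lower ones, those of Creb1 and the peptide-trimming protease Erap1 were dim, at -1.22 and -1.11 (level-adjusted -0.80 and -0.68), and were named after their values were seen. The lowest genes that were not dim were regulators of class II genes. Rfx5, a DNA-binding factor of class II promoters, read 6.87 in 2RS30 and 5.34 in 2RH30, giving a difference of -1.53 and a level-adjusted one of -1.72. Ciita, the class II coactivator, read 7.54 and 6.37, a difference of -1.17 (level-adjusted -1.48), and its other probe set differed by -0.60 (level-adjusted -0.64). Rfx5 has 1 probe set, and the readings of Ciita had the same sign.

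Other parts of the interferon pathway are given here beside the shares of all probe sets, 10.4% higher and 12.1% lower by 2-fold or more. Over 24 probe sets of 14 receptor, kinase and inhibitor genes, 2 were higher and 4 lower, which is 8.33% and 16.7%, with a median of 0.38 (level-adjusted 0.22). Taking the brightest probe set of each gene, the highest were Pias1, an inhibitor of STAT proteins, at 0.86 and the kinase Jak2 at 0.82 (level-adjusted 0.57 and 0.66), and the lowest that were not dim were the kinase Jak1 at -0.20 and the phosphatase Ptpn2 at -0.03 (level-adjusted -0.62 and -0.26). Probe sets beyond the rule for naming, chosen after their values were seen, held the 2-fold differences. The higher ones were the other probe set of Jak1 at 1.55 (level-adjusted 1.27) and 1 of Irf2 at 1.36 (level-adjusted 1.07). The lower ones were probe sets of Ptpn11 at -1.03 (level-adjusted -1.34) and, all dim, of Tyk2, Irf2 and Ptpn2, from -1.75 to -1.04. Over 15 probe sets of 10 genes of nucleic acid sensing, 3 were higher and 2 lower, which is 20% and 13.3%, with a median of -0.24 (level-adjusted -0.34). Ticam1, the adaptor TRIF, and Trim25, a ubiquitin ligase, differed by 1.34 and 1.01 (level-adjusted 1.13 and 0.67), and the adaptors Traf3 and Mavs by -0.75 and -0.03 (level-adjusted -0.91 and -0.29). The lower ones, named after their values were seen, were a probe set of the RNA sensor gene Dhx58 at -2.51 (level-adjusted -2.22), whose brightest probe set differed by 0.08 (level-adjusted 0.05), and the dim Tbk1 at -1.30 (level-adjusted -0.85).
Over 29 probe sets of 21 other interferon-induced genes, 3 were higher and 2 lower, which is 10.3% and 6.90%, with a median of 0.40 (level-adjusted 0.02). Ifi35 read 3.73 in 2RS30 and 6.18 in 2RH30, giving a difference of 2.45 and a level-adjusted one of 2.58. Dtx3l, a ubiquitin ligase, read 4.03 and 6.02, a difference of 1.99 (level-adjusted 2.09). Both were thus higher from a 2RS30 value not far above the 5th percentile. The other higher probe set, 1 of 3 for Uba7, the enzyme that activates Isg15 for conjugation, differed by 1.61 (level-adjusted 1.44), and the lower ones, of Cmpk2 and Herc6, were dim at -1.06 and -1.05 (level-adjusted -0.63 and -0.61), all named after their values were seen. Lgals3bp and Samhd1 were the lowest genes that were not dim, at -0.80 and -0.51 (level-adjusted -1.02 and -0.50).

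Markers of immune cells, which carry much of the class II and immunoproteasome expression of most tissues, were read in the same pools. Of 19 probe sets of 16 macrophage and leukocyte genes, 6 were higher and 4 lower by 2-fold or more, with a median of 0.55 (level-adjusted 0.46). That is 31.6% and 21.1%, against 10.4% and 12.1% of all probe sets. Their summed level, on the linear scale, was 1410 in 2RS30 and 2125 in 2RH30, against a sum of 2.51e+06 and 3.13e+06 over all probe sets. C1qa, a complement chain of macrophages, read 3.06 in 2RS30, under the 5th percentile, and 5.77 in 2RH30, so the size of its difference of 2.71 (level-adjusted 3.04) is uncertain. Cd68, a lysosomal marker of macrophages, differed by 1.6 (level-adjusted 1.61). The other higher probe sets, named after their values were seen, were those of C1qb, C1qc, Cd14 and Mrc1, none of them dim. C1qb and C1qc, complement chains like C1qa, differed by 1.38 and 1.33 (level-adjusted 1.03 and 1.06). Cd14 differed by 1.10 (level-adjusted 0.78), and Mrc1 read 5.04 in 2RS30 and 6.05 in 2RH30 (level-adjusted difference 0.92). The integrin Itgam and the growth factor receptor Csf1r differed by -1.11 and -0.77 (level-adjusted -1.07 and -0.89). The pan-leukocyte marker Ptprc differed by -0.71 and, dim, by -2.13 (level-adjusted -0.79 and -1.68), and the macrophage marker Adgre1, which was dim, by -1.39 (level-adjusted -1.06). Aif1 was dim in both of its probe sets, at -1.29 and 0.36 (level-adjusted -0.91 and 0.46). The list thus held probe sets on both sides of 0, with 13 above and 6 below, as deposited and level-adjusted alike. Its summed level, to which no level adjustment was applied, was higher in 2RH30. Lyz2 weighed most in this sum, being the brightest probe set of the list (9.21 and 9.76). Lyz2 was 0.55 above 0 as deposited but only 0.03 once the trend on level was removed. Of 12 probe sets of 9 T cell and NK cell genes, 0 were higher and 3 lower, which is 0% and 25% beside the same shares of all probe sets. Their median was -0.76 (level-adjusted -0.52), and their summed level was 559 in 2RS30 and 444 in 2RH30. The T cell receptor genes Cd3e and Cd3g were dim, but Cd3d was not. Cd3d and the kinase Lck were the lowest genes that were not dim, at -1.04 and -0.81 (level-adjusted -1.04 and -1.05). Cd2 and Cd4 were the highest, at 0.86 and 0.27 (level-adjusted 0.71 and 0.01). The 5 B cell and plasma cell probe sets had a median of -0.11 (level-adjusted 0.14) with summed levels of 204 and 236, and the 4 dendritic cell probe sets one of 0.18 (level-adjusted -0.15) with summed levels of 369 and 423. The 8 endothelial probe sets had a median of 0.42 (level-adjusted 0.54) with summed levels of 568 and 930, and 6 were above 0 and 2 below. Much of that sum lay in the bright probe sets of Egfl7, which differed by 1.11 and 1.02 (level-adjusted 0.67 and 0.56). Tek differed by 0.48 (level-adjusted 0.38). Vwf differed by -0.52 and Pecam1, which was dim, by -0.56 (level-adjusted -0.75 and -0.43). Emcn and both probe sets of Kdr, also dim, differed by 0.88, 0.20 and 0.36 (level-adjusted 1.05, 0.51 and 0.80). Dim probe sets made up 7 of 19 for macrophages, 6 of 12 for T and NK cells, 3 of 5 for B cells, 2 of 4 for dendritic cells and 4 of 8 for endothelium. The part of these cell types in the differences of the members was not tested.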

How the data were processed

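Total RNA of the left adrenal medulla was pooled from 6 rats per group by the authors, and each pool was measured on 1 Affymetrix array of the design Rat Genome 230 2.0. The authors deposited 1 normalized value per probe set and array, read here as log2 from its range. Their submission notes name Affymetrix Expression Console, without a version, and the methods of the study mention GCRMA within Partek and call the deposit quantile-normalized. The quantiles of the columns were checked and are not equal, so the values do not match that description, and which summarization made them is unknown here. As for all arrays, their number limits the precision.

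The 57 array controls among 31099 probe sets were left out. The platform annotation named 1 gene for 20826 of the others, several for 436 and none for 9780, and symbols were updated by gene number through RefSeq for 20758. The difference was the 2RH30 value minus the 2RS30 value. No model was fitted. Counts were made at 2-fold, the threshold of the study. The level-adjusted difference subtracts a lowess curve (fraction 0.3, 3 iterations). The code was checked on simulated differences with a straight trend, little noise and large planted differences. Such a check cannot show how well the adjustment works on these arrays. Where a single value stands for a gene with several probe sets, it is that of the probe set brightest on average. Dim means under the array median in both groups.

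The members and gene lists were chosen with earlier results of these data known. All members are named, and of each other list at most the 2 highest and the 2 lowest genes whose brightest probe set was not dim. Psmb5 and Psmb7 were added as catalytic counterparts, and defining markers where they were dim or disagreed. Other genes were added where the text says that their values were seen first, or that they were the brightest of a list. Alternatives were other scalings, filters, fold thresholds and ways to join probe sets. Python 3.11.15, pandas 2.3.3, numpy 2.4.6, statsmodels 0.14.6 and matplotlib 3.10.9 were used.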

Additional observations from a re-analysis of the deposited data

How the results depend on the processing

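Over all alternatives, 61 counts and medians stayed within 1.5 times or 0.25 (log2) of the result as deposited and 13 did not. This tally takes in the filter for dim probe sets, which some higher members pass only through their high 2RH30 values. It also takes in centring, which could hardly change a result, so it does not show how firm the results are. The 11 higher and 3 lower member probe sets became 19 and 6 at 1.5-fold and 3 and 0 at 3-fold, which follows from the threshold. When the probe sets of a gene were averaged, 7 genes were higher and 0 lower, and 1 was lower with 1 probe set per gene, without dim probe sets, or after quantile normalization. The receptor median of -0.07 was 0.92 with 1 probe set per gene and 0.74 with the mean, since Ifnar1 then counts once. The difference of Cxcl10, 0.09, was -0.17 after quantile normalization and -0.19 after lowess. RT1-Db1 turned from 2.18 to -0.95 without probe sets that can match several transcripts. Of the other values of single genes, 220 stayed inside the SD for probe sets of 1 gene, and 2 moved beyond it, with Psme1 at 0.38 and RT1-Db1 at 0.62 as means over probe sets. Many of the 220 could not move. Centring shifts every gene alike, and the filters and the mean leave a gene with 1 probe set unchanged where they keep it. The number is thus no measure of stability. Beyond what these settings are built to do, the cause was not tested. No replicate could be left out. No paired analysis was possible because only 1 array represents each group. The values carry no detection call, so what counts as above background is unknown for dim probe sets.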

Other observations

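Class I RT1 genes outside the members were read by 20 probe sets that name 1 of 12 genes. As deposited 2 of them were 2-fold or more higher in 2RH30 and 2 lower. That is 10% each way, near the 10.4% and 12.1% of all probe sets. Their median was -0.20 (level-adjusted -0.42), whereas the peptide loading and B2m probe sets had a median of 0.74. The higher ones, named after their values were seen, were RT1-CE10, from 3.71 in 2RS30 to 6.31 in 2RH30, and RT1-CE16, from 5.55 to 7.34. The 2RS30 value of RT1-CE10 lay not far above the 5th percentile of 3.67, and that of RT1-CE16 was shared by 468 probe sets. Both are of a kind that can match several transcripts. Both lower ones belong to RT1-CE5, at -1.30 and -1.10, and level-adjusted they were under 2-fold, at -0.96 and -0.76. The 3 other probe sets of RT1-CE5 differed by 0.49, 0.58 and 0.64 (level-adjusted 0.29, 0.16 and 0.43). Class I genes of the rat are near-identical copies, so these readings cannot be assigned to single genes with certainty. The probe sets that name RT1-A2 together with other genes differed by -0.06 and -1.31 (level-adjusted -0.45 and -1.04).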
